A study of Mus musculus with 16 samples.

Results

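Bmal1 regions of the mouse submandibular gland that carried an Nr1d1 region but no Dbp region numbered 698, of 7624 Bmal1 regions in all, or 9.16%. They also accounted for 19.3% of the 3621 Nr1d1 regions. A region was a summit of a target's replicate 1 list with a replicate 2 summit of the same target within 200 bp, placed at the midpoint of the pair, and regions within 200 bp of each other were merged. The members were the Bmal1 regions with an Nr1d1 region and without a Dbp region within 200 bp, on chromosomes 1 to 19 and X. The other Bmal1 regions carried both Nr1d1 and Dbp (1895 regions), Dbp only (1725) or neither (3306). The members were thus chosen by the presence of summits in the 6 CUT&Tag lists, and what the rule used is given below as a description, with no test.

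The study profiled the submandibular gland, a major salivary gland, with its title naming the circadian clock and salivary hypofunction after radiotherapy. CUT&Tag, in which an antibody tethers a transposase to chromatin near a protein, gave 2 summit lists for each of the 3 targets. These glands came from untreated control mice, the label field for genotype names the target, and neither a control antibody nor the hour of collection is labelled. RNA-seq was run on wild-type (WT) mice aged 6 to 8 weeks, with 2 libraries per group. Untreated glands were collected at 3 hours of the light cycle, written as zeitgeber time (ZT3, ZT9 and ZT15), and irradiated glands 6 h and 24 h after 5 Gy. The labels do not say that replicates came from separate animals. Y-linked transcripts were present in 1 library and at 0 in the other in the ZT15, 6 h and 24 h pairs, so those replicates were not 1 animal sampled again. For the ZT3 and ZT9 pairs the data do not settle it, and part of their spread may be technical only.

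Bmal1, with its partner Clock, activates genes through the E-box and so drives the daily transcription loop. Nr1d1 (REV-ERB alpha) is itself a target of Bmal1 and represses genes, Arntl (the gene of Bmal1) among them, through sites shared with the ROR activators. Dbp is a PAR bZIP activator that acts through the D-box, and its own gene is a classical target of Bmal1 and Clock. In salivary glands the clock is known to run in acinar and duct cells.

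The promoters of the 4 clock-list genes with a member near the start are shown because the description below turns on them. They are Ciart, Dbp, Tef and Fkbp5. Each sequence covers 250 bases before to 50 after the start in RefSeq (GRCm38.p6, the build mm10), 5′ to 3′ on the gene's strand, and capitals mark the E-box CACGTG.
Ciart: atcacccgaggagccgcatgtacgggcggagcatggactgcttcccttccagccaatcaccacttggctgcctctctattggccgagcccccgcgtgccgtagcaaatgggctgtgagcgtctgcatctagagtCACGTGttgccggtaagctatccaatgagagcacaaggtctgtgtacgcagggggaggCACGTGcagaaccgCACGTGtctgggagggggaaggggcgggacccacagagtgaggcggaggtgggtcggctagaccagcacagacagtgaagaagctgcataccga
Dbp: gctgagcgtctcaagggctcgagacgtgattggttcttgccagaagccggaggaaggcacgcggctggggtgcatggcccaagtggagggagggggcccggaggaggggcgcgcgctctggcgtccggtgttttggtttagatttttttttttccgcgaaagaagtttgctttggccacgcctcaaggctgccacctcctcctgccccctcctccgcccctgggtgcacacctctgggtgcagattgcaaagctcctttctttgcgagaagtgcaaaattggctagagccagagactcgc
Tef: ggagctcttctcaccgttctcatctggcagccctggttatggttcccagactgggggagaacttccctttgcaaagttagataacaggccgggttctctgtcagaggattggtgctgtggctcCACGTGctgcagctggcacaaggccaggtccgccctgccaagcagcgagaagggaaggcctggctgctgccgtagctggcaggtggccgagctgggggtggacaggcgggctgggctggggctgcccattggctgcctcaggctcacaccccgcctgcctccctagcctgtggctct
Fkbp5: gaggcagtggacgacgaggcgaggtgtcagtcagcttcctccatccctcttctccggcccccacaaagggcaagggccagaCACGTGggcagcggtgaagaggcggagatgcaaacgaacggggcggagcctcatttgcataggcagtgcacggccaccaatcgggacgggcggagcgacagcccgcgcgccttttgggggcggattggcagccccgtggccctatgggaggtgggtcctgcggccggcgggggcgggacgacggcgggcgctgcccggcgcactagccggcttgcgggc

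The Ciart promoter (chr3:95882179-95882478, minus strand) held 3 E-boxes, whose first bases lay at -116, -58 and -44 from the start. The member there had its midpoint at -49, next to the last pair. The Tef promoter (chr15:81802423-81802722, plus strand) held 1 E-box at -127 with the member at -57, and the Fkbp5 promoter (chr17:28486100-28486399, minus strand) 1 at -169 with the member at -102. The Dbp promoter (chr7:45704997-45705296, plus strand) held none, and the member there lay at -311, outside the sequence shown.

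How far the members lacked Dbp was checked first against the Dbp lists themselves. Of the 698 members, 649 (93.0%, exact 95% interval 90.8 to 94.8) had a summit of the Dbp replicate 1 list within 200 bp. Only 44 (6.3%, 4.62 to 8.37) had one of the Dbp replicate 2 list. A summit stood in replicate 1 alone at 624 members and in replicate 2 alone at 19. At 25 further members both lists had a summit that the rule did not pair into a region within 200 bp. Neither list had one at 30 members (4.3%, 2.92 to 6.08). For all Bmal1 regions the shares were 90.3% with the replicate 1 list and 48.6% with the replicate 2 list. The data therefore do not show members free of Dbp signal, and they are called here Bmal1 and Nr1d1 regions without a replicated Dbp region. The intervals cover counting error over regions only, and regions are not replicates.

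The lengths of the lists were unequal within every target, which bears on each class. On the chromosomes used, Bmal1 had 30975 and 19693 summits in replicates 1 and 2, Nr1d1 had 9578 and 38306, and Dbp had 49233 and 10322. The long lists of Bmal1, Nr1d1 and Dbp overlapped each other more than they overlapped their own replicates. Of the Bmal1 replicate 1 summits, 79.6% had an Nr1d1 replicate 2 summit within 200 bp and 77.6% a Dbp replicate 1 summit, against 24.6% with a Bmal1 replicate 2 summit. Among Nr1d1 replicate 1 summits, 70.4% had a Bmal1 replicate 2 summit and 37.8% an Nr1d1 replicate 2 summit. The short Dbp replicate 2 list went the other way, with 82.2% of its summits near a Dbp replicate 1 summit and at most 68.2% near those of any list of another target. The part that list length has in these overlaps was not tested.

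**Figure D1:**
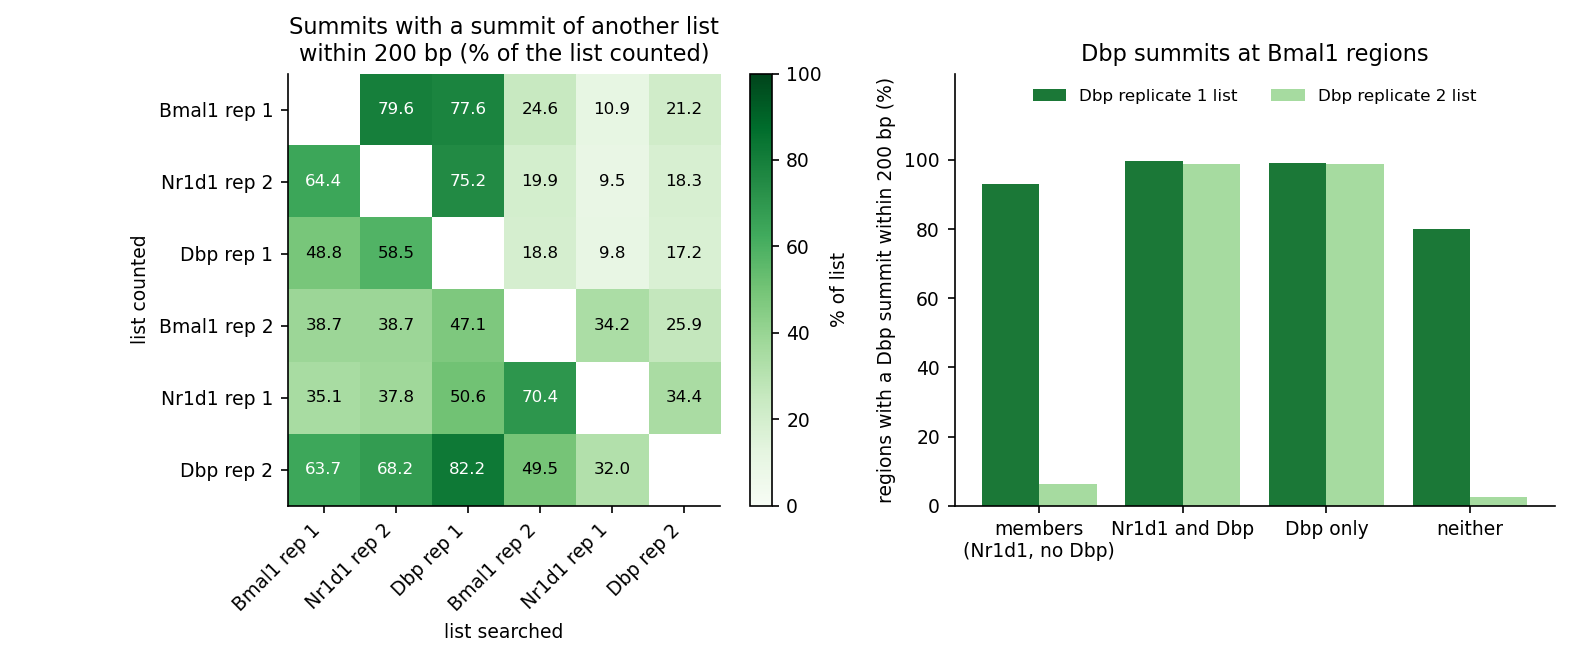
Left, share of the summits of each list (rows) that had a summit of another list (columns) within 200 bp, in percent; the 3 longer lists come first. Right, share of Bmal1 regions in each overlap class with a Dbp summit within 200 bp in either list; the members stand at 93.0% for the replicate 1 list and 6.3% for the replicate 2 list.

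At the members, Bmal1 and Nr1d1 lay close together. The distance between the midpoints had a median of 36 bp and quartiles of 16 and 66 bp. At 443 members (63.5%) it was at most 50 bp, and the largest was 190 bp. Where the Dbp replicate 1 list had a summit, it lay a median of 41 bp from the Bmal1 midpoint. The nearest replicated Dbp region was far away at most members, with quartiles of 5992, 22134 and 66362 bp. Near the limit, 18 members had their Nr1d1 region over 150 bp away, and 4 Bmal1 regions just missed membership with one beyond 200 bp but within 250 bp. On the Dbp side, 7 members had a Dbp region within 300 bp, the closest at 205 bp, and 34 regions of all 3 targets had theirs at over 150 bp.

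The deposited score of a summit, whose scale is not stated, was read as a percentile within its own list. Members stood high in the longer list of each target and in the middle of the shorter one. The median percentile was 79.8 in Bmal1 replicate 1 (quartiles 65.0 and 90.9) and 56.1 in replicate 2 (32.5 and 78.8). For Nr1d1 it was 50.9 in replicate 1 (24.6 and 73.7) and 88.1 in replicate 2 (76.8 and 94.1). All Nr1d1 regions showed the same pattern, with medians of 56.3 and 90.9, slightly above the members. The Dbp replicate 1 summits at members had a median of 81.1 in their list. Regions of all 3 targets ranked above the members in both Bmal1 lists, with medians of 92.1 and 79.8, while regions with neither ranked below, at 74.0 and 43.2. Regions with Dbp only stood at 86.2 and 54.3, and all Bmal1 regions at 83.2 and 56.2, close to the members. Among the members the ranks of the 2 Bmal1 lists followed each other with a Spearman rho of 0.35 over 698 regions. Bmal1 replicate 1 and Nr1d1 replicate 2 had a rho of 0.59, and the Nr1d1 lists one of 0.19. These coefficients are descriptions over regions that share libraries.

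**Figure D2:**
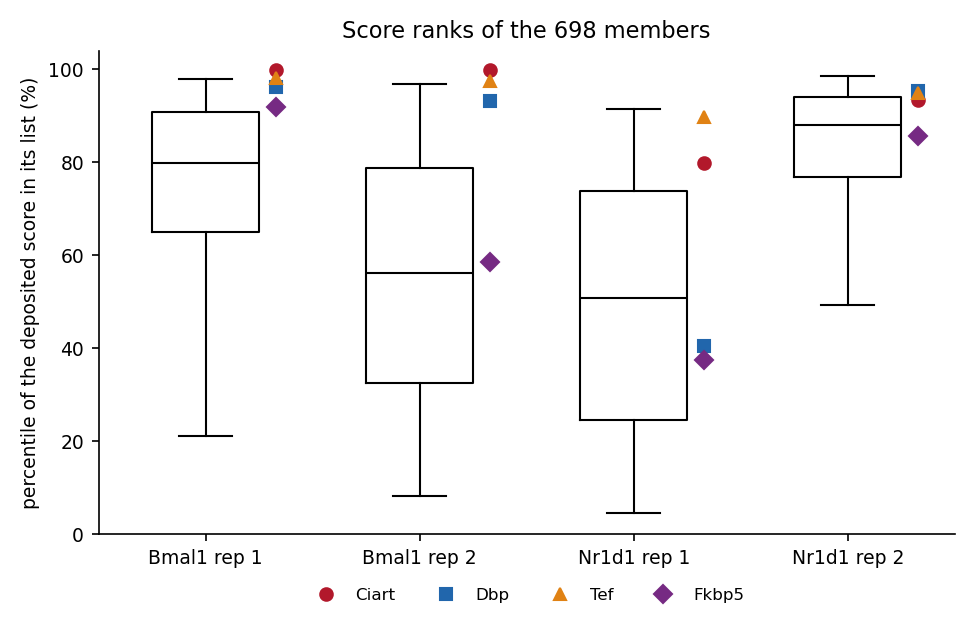
Percentile of the deposited score within each list for the 698 members (boxes, quartiles; whiskers, 5th to 95th percentile), with the 4 regions near clock-list genes as symbols. Ciart stands at 99.8 and 99.9 in the Bmal1 lists, and Fkbp5 at 92.0 and 58.6.

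A smaller share of members than of the other Bmal1 regions lay at transcription starts. Starts were taken from RefSeq and were not analysed here for chromosome 18, which left 674 members. Of these, 132 (19.6%, exact 95% interval 16.7 to 22.8) lay within 1000 bp of an annotated start. The share was 32.7% for all Bmal1 regions, 30.4% for all Nr1d1 regions, 38.5% for regions of all 3 targets, 40.8% for Dbp only and 27.9% for neither. The median distance to a start was 12338 bp for members and 5605 bp for regions of all 3 targets. Over 1000 bp from any start, 310 members (46.0%) lay inside a protein-coding gene and 232 (34.4%) outside one, and 117 (17.4%) lay over 50 kb from a start. No test over regions was made of these differences.

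**Figure D3:**
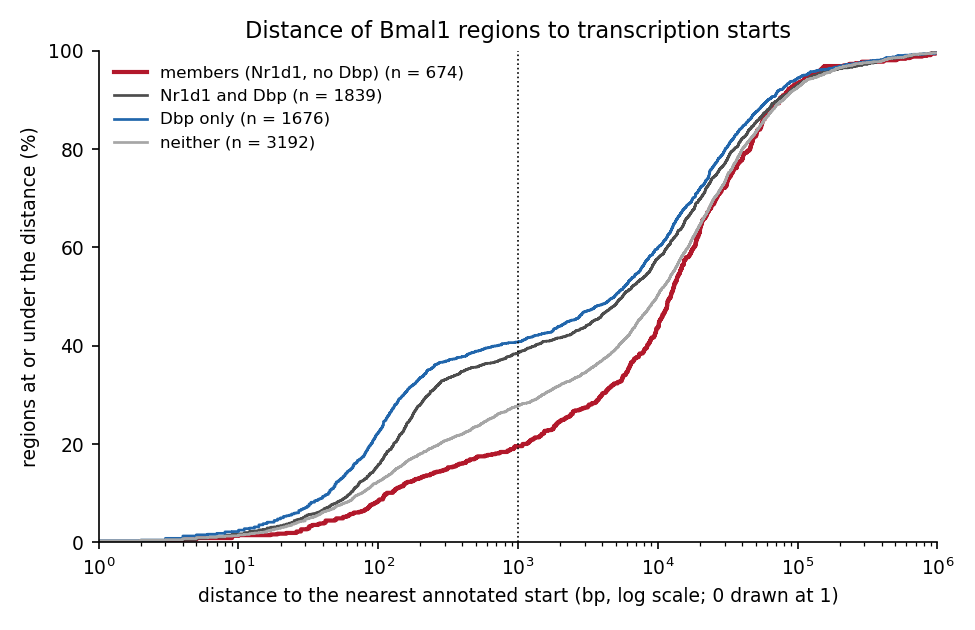
Cumulative share of Bmal1 regions (percent) by distance to the nearest annotated start (bp, log scale), for members and the 3 other overlap classes. At the dotted line, 1000 bp, the members' curve is the lowest at 19.6%.

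Members were spread over all chromosomes analysed. They made up 5.44% of the Bmal1 regions of chromosome 16 and 13.1% of those of chromosome 4, where 73 members lay. The highest share was 14.9% on chromosome X, which rests on 7 members of 47 regions. Of the members, 65 (9.31%) had another within 10 kb, and the closest pair was 592 bp apart. Within the same distance, 6.16% had a Bmal1 region with Dbp only, 17.5% one with both Nr1d1 and Dbp and 18.8% one with neither. These classes held 1725, 1895 and 3306 regions, against 698 members. No comparison with an even spread was made, so whether members cluster was not tested.

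The 10 members that ranked highest in all 4 Bmal1 and Nr1d1 lists together were mostly distal, with 2 of them within 1000 bp of the start of a protein-coding gene. The first, at chr17:6468219-6468419, was 67695 bp from the nearest start, that of the predicted gene Gm2808, and its percentile was at least 95.3 in every list. One at chr4:150211169-150211369 lay 10134 bp upstream of Car6, the carbonic anhydrase secreted into saliva. One at chr5:144179483-144179683 lay 10703 bp upstream of Bhlha15 (Mist1), a transcription factor of secretory cells, inside the gene Lmtk2. One at chr5:88304132-88304332 lay at -3209 bp from the start of 1700041A01Rik, and its nearest protein-coding gene was Prol1, at 13080 bp. A Bmal1 region with neither Nr1d1 nor Dbp lay nearer to Bhlha15, at 2625 bp.

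The remaining high-ranking members included both distal and promoter regions. Inside gene bodies, chr7:35341428-35341628 lay in Rhpn2 and chr11:88392675-88392875 in Msi2 (an RNA-binding protein). The member at chr4:132960318-132960518 lay 13677 bp upstream of Fgr, a Src-family kinase of myeloid cells. Those at chr8:122281380-122281580, 661 bp upstream of Zfpm1 (a GATA cofactor), and at chrX:98937195-98937395, 486 bp before a start of Yipf6, were at starts. The latter lay inside the annotated span of Yipf6. Each of the 10 had a Dbp replicate 1 summit within 200 bp. At the ones in Rhpn2, upstream of Fgr and at Yipf6, an unpaired Dbp replicate 2 summit also stood within 200 bp, at 135, 175 and 96 bp.

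Car6, Bhlha15 and Prol1, picked from these neighbours after they were seen because they are known in salivary or secretory cells, did not pass the test over the control times. Car6 ranged from 19300 to 51800 FPKM (fragments scaled to transcript length and library size) in the 6 untreated libraries, with a median of 34400. Bhlha15 ranged from 77.6 to 156 FPKM there, with a median of 106. Prol1 ranged from 22200 to 56700 FPKM in the untreated libraries but was listed at 0 in the first 24 h library, against 50100 in the second. The limma adjusted p over the control times was 0.527 for Car6, 0.456 for Bhlha15 and 0.986 for Prol1.

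Marker genes of gland cells were then searched for members within 100 kb, a distance at which 9.07% of all annotated symbols had one. Of the 9 acinar genes with an annotated start, 3 did. Aqp5, the water channel of acinar cells, had a member 1551 bp from its start, Bhlha15 one at 10703 bp and Bpifa2 one at 53021 bp. Bpifa2, although listed as acinar, was uneven between libraries as the parotid gene Amy1 was. In the ZT15 libraries Bpifa2 had 4030 and 86100 FPKM, where Amy1 had 111 and 19200. Of 6 duct genes, Ascl3 (8400 bp), Krt8 (37444 bp) and Krt18 (61318 bp) had one. Krt8 and Krt18 shared the same member, at chromosome 15, position 101966898, so they are not separate hits. Egf was the only one of 5 granular convoluted tubule genes with a member, at 50275 bp. Except at Ascl3, a Bmal1 region of another class lay closer to each of these genes. It carried neither Nr1d1 nor Dbp at Aqp5 (1319 bp), Bhlha15 (2625 bp) and Krt8 (91 bp), Dbp only at Bpifa2 (37841 bp), and all 3 targets at Krt18 (11236 bp) and Egf (44606 bp). No member was found within 100 kb of the listed myoepithelial, immune, endothelial, fibroblast, blood or adipocyte genes, or of Amy1, the only listed parotid gene. Few of these had an annotated start: 4 myoepithelial and basal, 4 T cell, 2 B and plasma cell and 2 macrophage genes. The others were 1 endothelial, 2 fibroblast, 3 red blood cell, 2 adipocyte and 1 parotid gene. With so few genes per list, the absence says little beside the 9.07% of all symbols. In FPKM, Aqp5 stood at 242 and 204 in the ZT3 libraries, 541 and 335 for ZT9, and 410 and 219 for ZT15. After irradiation it stood at 257 and 248 (6 h) and 134 and 198 (24 h). Both 24 h libraries lay below all others, and neither irradiation comparison passed (limma adjusted p 0.448 for 6 h and 0.54 for 24 h).

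E-boxes in nearby promoters were counted in the sequences of RefSeq, both strands read, since no genome was at hand for the distal members. Of the 132 promoters nearest to members within 1000 bp, 21 held CACGTG (15.9%, exact 95% interval 10.1 to 23.3). All 32619 promoters of the table held it at 7.2%, and those of at least 60% G and C at 10.8%; the members' promoters had a median of 61.7% G and C. The share was 13.6% at regions of all 3 targets and 33.3% at Bmal1 regions with neither Nr1d1 nor Dbp. It was 22.8% for all Bmal1 regions and 19.8% for those with Dbp only, both above the members, and 12.1% for all Nr1d1 regions. At 81 members the midpoint fell inside the promoter window, and 15 of those windows held an E-box, with a median distance of 61.5 bp between them. That distance was shorter in the other classes: 44.0 bp for all 3 targets, 46.5 bp for Dbp only and 42.5 bp for neither.

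**Figure D4:**
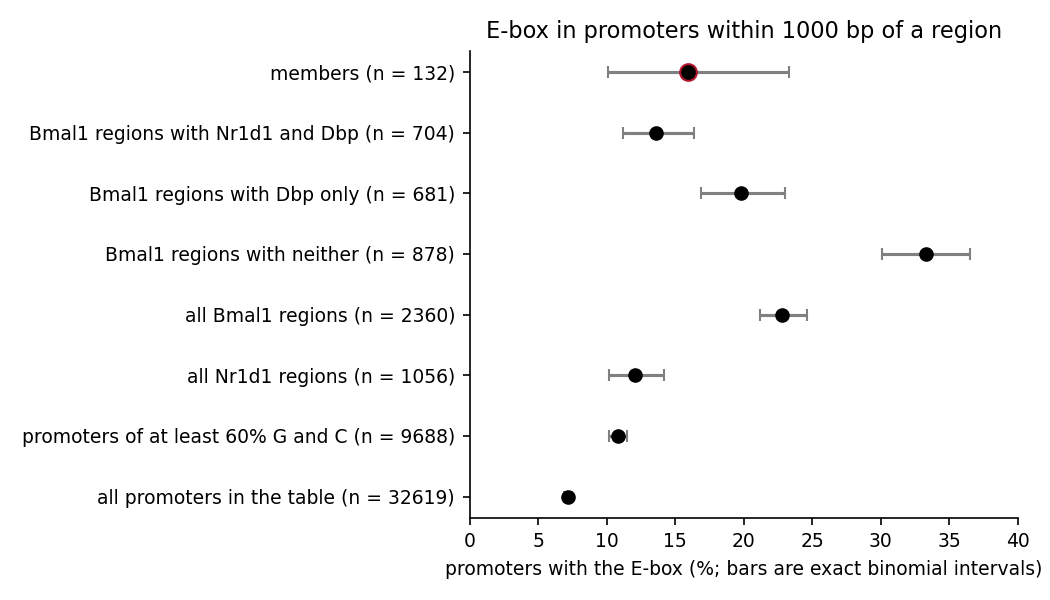
Share of promoters with the E-box (percent, points, with exact 95% intervals) among promoters within 1000 bp of each set of regions, beside all promoters of the table. The members stand at 15.9%, between regions of all 3 targets at 13.6% and Bmal1 regions with neither at 33.3%.

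The motifs of Nr1d1 and Dbp were counted in the same windows. The core AGGTCA, shared by Nr1d1 and ROR, stood in 17 of the 132 promoters (12.9%), below the 16.2% of all promoters but above the 9.63% of promoters of at least 60% G and C. The longer form, TAGGTCA after 3 bases of any kind, contains that core and stood in 1 (0.758%, against 2.6% of all promoters and 1.07% of those rich in G and C). The D-box TTATGTAA stood in none, which an exact 95% interval limits to 2.76%, against 0.944% of all promoters and 0.237% of those rich in G and C.

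Clock genes were found at members in small number. Of 35 genes of the core clock, PAR bZIP and clock output lists with an annotated start, 4 had a member within 1000 bp, a distance at which 0.616% of all symbols had one. For 9 others of the lists the nearest Bmal1 region within 1000 bp carried all 3 targets, for 2 Dbp only, and for 4 neither. The members' genes were Ciart (Chrono), a repressor of Clock and Bmal1, the PAR bZIP activators Dbp and Tef, and Fkbp5, a glucocorticoid-induced cochaperone listed as clock output.

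The 4 regions differed in how they missed a Dbp region. At Ciart the Dbp replicate 2 summit lay 28 bp from the Bmal1 midpoint and the replicate 1 summit 501 bp away. Tef showed the same arrangement at 78 and 573 bp. At the Dbp gene both lists had a summit, at 100 bp in replicate 1 and 121 bp in replicate 2, which were not paired. At Fkbp5 the replicate 1 summit lay at 53 bp and the nearest replicate 2 summit at 13466 bp. In the Bmal1 lists the Ciart region had percentiles of 99.8 and 99.9, Tef 98.1 and 97.5, Dbp 96.2 and 93.2, and Fkbp5 92.0 and 58.6. Ranks for Nr1d1 replicate 1 were lower, from 37.4 at Fkbp5 to 89.7 at Tef. So 3 of the 4 had Dbp summits close by in the list that most members lacked.

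In the RNA values of the control times, Fkbp5 was low where the other 3 genes were high. Ciart had 0.434 and 0.268 FPKM at ZT3, 14.6 and 5.91 at ZT9, and 0.9 and 2.09 at ZT15. Dbp had 8.55 and 3.88 FPKM at ZT3, 281 and 115 at ZT9, and 12.5 and 28.1 at ZT15. For both, the ZT9 libraries lay above all other controls. Tef had 29.4 and 16.0 FPKM at ZT3, 72.3 and 105 at ZT9, and 56.5 and 63.9 at ZT15, again highest at ZT9. Fkbp5 had 45.6 and 45.3 FPKM at ZT3, 8.45 and 8.91 at ZT9, and 23.2 and 37.5 at ZT15. Fkbp5 was thus lowest at ZT9 in both libraries, and its groups did not overlap.

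None of the 4 passed the adjusted threshold of 0.05. On the log2(FPKM + 1) scale, which understates changes of low genes, ZT9 minus ZT3 was 4.73 for Dbp (SE 0.68, limma adjusted p = 0.102). It was 2.94 for Ciart (SE 0.59, limma adjusted p = 0.122), 1.96 for Tef (SE 0.35, 0.116) and -2.26 for Fkbp5 (SE 0.32, 0.098). In the limma F test over the 3 times the adjusted p was 0.18 for Fkbp5 and Dbp, 0.199 for Tef and 0.226 for Ciart. By unadjusted p these ranked 25, 34, 128 and 221 of 15161 genes tested.

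The ZT3 and ZT9 libraries also differed in other respects. Y-linked genes averaged 18.7 to 19.3 FPKM in the ZT3 libraries and 0 in both ZT9 libraries. Xist, a transcript of female cells, had 0.0307 and 0.0151 FPKM at ZT3 against 26 and 24.9 at ZT9. By these transcripts the ZT3 libraries read as male and the ZT9 libraries as female. The files of the 2 groups also list their genes in different orders. Summed FPKM of the 6 granular convoluted tubule genes was 50000 and 75900 at ZT3 against 646 and 1400 at ZT9. The hour cannot be told apart from sex and the other differences between these 2 groups. With the Y-linked level as a term, ZT9 minus ZT3 became 4.43 for Dbp, 2.43 for Ciart, 1.73 for Tef and -1.70 for Fkbp5. In a bulk gland, fewer cells of a type and less RNA per cell cannot be told apart.

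**Figure D5:**
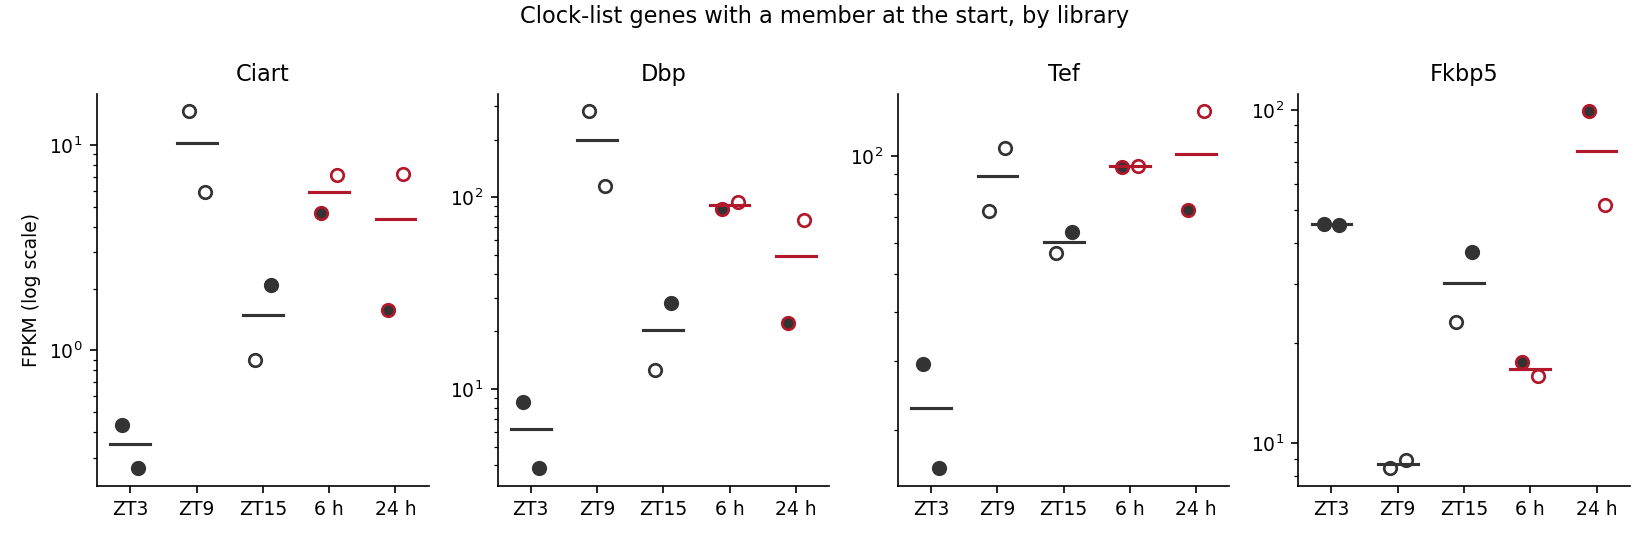
FPKM (log scale) of Ciart, Dbp, Tef and Fkbp5 in the 10 libraries, with a line at each group mean; red outlines mark libraries after irradiation, and filled points those with Y-linked transcripts. Fkbp5 is lowest at ZT9 (8.45 and 8.91), where Dbp is highest (281 and 115).

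In all, 165 genes had a start within 1000 bp of a member, 38 of them predicted or clone-named. Of these, 141 matched an expression row and 128 passed the filter of at least 1 FPKM in at least 2 libraries. The 128 had a median of 14.5 FPKM in the controls, against 7.15 for all 15161 genes kept. In the limma F test over the control times 0 of 128 passed the adjusted threshold, against a background of 0.0198% of all genes tested. At an unadjusted p under 0.05 there were 25 (19.5%), where the background was 13.1%. For ZT9 against ZT3, 0 were called (background 0.0066%), and 31 (24.2%) had an unadjusted p under 0.05, against 16.0% of all genes. For ZT15 against ZT3 0 were called (background 0.0198%) and 16 (12.5%) had such a p, against 11.4%. For ZT15 against ZT9 0 were called (background 0.0%) and 19 (14.8%) had such a p, against 7.3%.

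Differences between the hours went both ways among the 128. From ZT3 to ZT9 the value was higher for 66 and lower for 62, with a median log2 change of 0.01, against -0.02 for all genes. The extremes were 4.73 for Dbp and -2.26 for Fkbp5. Among the 5 genes with the smallest p in the F test, the one outside the clock lists was Rab43, a small GTPase of vesicle traffic. Rab43 had 5.75 and 7.69 FPKM at ZT3, 12.5 and 10.2 at ZT9, and 18.2 and 15.3 at ZT15 (limma F test adjusted p = 0.196). Its ZT15 libraries lay above all other controls, and the Dbp replicate 1 summit was 7 bp from the member at its start.

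Pigr, chosen after its values were seen, carries immunoglobulin A across the gland epithelium into saliva. Its promoter held an E-box, and the member lay at -67 from the start. Pigr had 249 and 216 FPKM at ZT3, 176 and 136 at ZT9, and 79.3 and 34.2 at ZT15. The groups did not overlap, which carries no weight in a gene picked by its values. ZT15 minus ZT3 was -2.13 (SE 0.52, limma adjusted p = 0.276), the lowest of the 128 member genes. After irradiation it had 93.7 and 242 FPKM at 6 h and 251 and 389 at 24 h.

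At 6 h after irradiation, no member gene passed against ZT9. Neither ZT9 library had Y-linked transcripts but the first 6 h library did, so this comparison is partly mixed with sex. With the Y-linked level as a term, 0 of 128 were called, against 0.231% of all genes. The count called was 0 of 128 in limma (background 0.514%), and 18 (14.1%) had an unadjusted p under 0.05, against 12.2% of all genes. The median log2 change was 0.09, against 0.12 for all genes. Esyt2, a tether between the endoplasmic reticulum and the plasma membrane, had the smallest p, with 22.1 and 23.8 FPKM against 13.0 and 14.1 at ZT9 (log2 difference 0.72, SE 0.13, limma adjusted p = 0.072). Its 6 h libraries lay above every control library, the highest of which was 20.5, and against ZT3 the log2 difference was 0.21.

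The next genes by p at 6 h had larger adjusted values. Pi4ka, a phosphatidylinositol kinase, had 12.1 and 11.2 FPKM against 24.2 and 19.1 (log2 difference -0.83, limma adjusted p = 0.139). Myh9, the heavy chain of nonmuscle myosin, had 65.3 and 72.4 FPKM against 20.8 and 37.6 (1.27, limma adjusted p = 0.192). Both stood outside the range of all 6 control libraries. Fkbp3, a nuclear prolyl isomerase, and Irak4, a kinase of Toll-like receptor signalling, had log2 differences of -0.52 and 0.66 (limma adjusted p 0.24 and 0.242). Against ZT3 that of Irak4 was 0.06, and those of Pi4ka, Myh9 and Fkbp3 were -0.57, 1.14 and -0.34. Against ZT9 with the Y-linked term, Esyt2, Pi4ka and Myh9 had 0.73, -0.85 and 1.21, and Fkbp3 and Irak4 -0.57 and 0.68.

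The clock-list genes lay within the range of the control libraries at 6 h. Ciart had 4.68 and 7.13 FPKM, Dbp 86.8 and 95.0, Tef 94.0 and 94.4, and Fkbp5 17.5 and 15.9. Against ZT9 the log2 differences were -0.61 for Ciart, -0.98 for Dbp, 0.11 for Tef and 0.87 for Fkbp5. Without the first ZT9 library they were -0.02 for Ciart and -0.33 for Dbp, and without the second -1.20 and -1.62. Against ZT3 the 4 genes had 2.33, 3.75, 2.07 and -1.39. None passed in either comparison, and the direction for Ciart, Dbp and Fkbp5 turned with the control hour, which the labels do not tie to the irradiated groups.

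At 24 h no member gene passed against ZT3. Both ZT3 libraries had Y-linked transcripts but only the first 24 h library did, so this comparison is also partly mixed with sex. With the Y-linked level as a term, 0 of 128 were called, against 0.145% of all genes. The count called was 0 of 128 in limma (background 0.495%), and 24 (18.8%) had an unadjusted p under 0.05, against 17.9% of all genes. Of those 24, 23 were higher, where the background of higher genes was 16.1%. All genes had a median log2 change of 0.21 and the member genes one of 0.23. Tef had 72.7 and 130 FPKM against 29.4 and 16.0 at ZT3 (log2 difference 2.11, SE 0.35, limma adjusted p = 0.0613). Against ZT9 the Tef difference was 0.15 (limma adjusted p = 0.828), and against the mean of the control times 0.98. Rsad1, a heme chaperone, had 7.54 and 8.75 FPKM against 4.38 and 3.63 (0.87, limma adjusted p = 0.116), and against ZT9 its difference was 0.23.

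Tmem176a and Tmem176b, membrane proteins whose genes share a divergent promoter, share the member at chromosome 6, position 48841340. Tmem176a had 458 and 508 FPKM at 24 h against 115 and 110 at ZT3 (log2 difference 2.09, SE 0.42, limma adjusted p = 0.0923). Tmem176b had 607 and 647 FPKM against 196 and 170 (1.77, SE 0.30, limma adjusted p = 0.0674). The 24 h libraries of both stood above all other 8 libraries. Leaving a ZT9 library out of the fit changed the shared spread but not the log2 differences of both genes, since ZT9 is not part of this comparison. Esyt2 had 28.5 and 29.0 FPKM at 24 h, both above the higher ZT3 value of 20.5 (log2 difference 0.52, limma adjusted p = 0.124).

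The remaining clock-list genes at 24 h were uneven between the libraries. Ciart had 1.58 and 7.19 FPKM, Dbp 22.1 and 76.3, and Fkbp5 99.2 and 51.8. The library with lower Ciart and Dbp, the first, was the one with higher Fkbp5, and it was also the one with Y-linked transcripts. Both 24 h values of Fkbp5 lay above all other libraries. Against ZT3 the log2 differences were 1.77 for Ciart, 2.63 for Dbp and 0.65 for Fkbp5 (limma adjusted p 0.197, 0.139 and 0.327). Against ZT9 that of Fkbp5 was 2.91 (limma adjusted p = 0.00989), while those of Ciart and Dbp were -1.17 and -2.10.

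The 30 members with no Dbp summit in either list within 200 bp met the absence of Dbp most strictly. For 21 of them a Dbp summit lay within 500 bp, and 4 had none within 1000 bp. Their median percentiles were 72.8 and 58.6 in the Bmal1 lists and 54.2 and 79.9 in the Nr1d1 lists. At 8 (26.7%) the midpoint was within 1000 bp of a start, where the nearest genes were Esyt2, Tmem176b, Gm4890, AW549877, Pigr, Fam3c, Pdk4 and Nup50. The Dbp replicate 1 summit was 453 bp away at Esyt2, 237 bp at Tmem176b, 208 bp at Pigr and 210 bp at Pdk4, a kinase that restrains pyruvate oxidation. Pdk4 had 2.9 and 6.26 FPKM at ZT3, 2.91 and 16.5 at ZT9 and 2.9 and 3.09 at ZT15, so that 1 ZT9 library stood apart.

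The 10 libraries had between 791786 and 1174465 total FPKM, and each detected 19195 to 21781 genes. Depth is unknown, as FPKM holds no counts. The 10 acinar markers had a summed FPKM of 53000 to 196000, with 1 of them at 0 in the first ZT3 and the first ZT9 library. That sum includes Bpifa2, which ran from 2530 to 86100 FPKM in the controls. Other markers were uneven between libraries. Amy1, the listed parotid gene, ran from 12.8 FPKM in the first ZT9 library to 19200 in the second ZT15 library. Summed B and plasma cell genes ran from 160 FPKM in the first 24 h library to 5460 in the second ZT15 library. Y-linked transcripts averaged 18.7 to 30.7 FPKM in 5 libraries and 0 in the other 5, which split the ZT15, 6 h and 24 h groups.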

How the data were processed

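The lists hold 1-bp summits with a score deposited by the authors, and the labels and files state no caller, threshold or scale for it. The authors gave expression as FPKM per gene, per the labels. Per the submitters' processing notes, the tools were Bowtie2, HISAT2, SAMtools and Cufflinks (no versions or roles) and the build mm10. Of 55398 entries per file, 107 repeated symbols were dropped, 55181 genes were joined and 15161 were kept (at least 1 FPKM in at least 2 libraries). All 10 libraries, as log2(FPKM + 1), entered 1 limma model (version 3.58.1, R 4.3.3; trended prior, a mean for each group, 5 residual degrees of freedom). Two-sided p-values were adjusted by Benjamini-Hochberg over all kept genes. The fit and the region code were tested on simulated data. Regions were computed in Python 3.11.15. Starts, strands and promoters came from RefSeq (GRCm38.p6).

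Named regions were the 10 with the highest lowest percentile over the Bmal1 and Nr1d1 lists, and those within 10 kb of a clock-list gene. One of the 10 is not reported here. Since no member gene was called, the 5 with the smallest p in each comparison were named, after their regions' genes. The members and lists were chosen with earlier results of these data known. The motif count was to be made around the midpoints, but used promoters, as no genome was at hand.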

Additional observations from a re-analysis of the deposited data

How the results depend on the processing

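The number of members depended on the lists. It was 632 at 100 bp, 739 at 500 bp, 658 with no Dbp region within 1000 bp, and 698 with replicate 2 as the anchor. It was 388 with the summits above the median score of each list, 348 with equal numbers of summits, and 30 with no Dbp summit in either list. Leaving out 1 list gave 57 (without Dbp replicate 2) to 3348 (without Nr1d1 replicate 1), and 1063 without Bmal1 replicate 2. At 100 bp, 402 of the 698 (57.6%) remained within 200 bp of a member. The share of members with a Dbp summit in exactly 1 list was 92.1% as reported, 77.7% at 100 bp, 97.2% at 500 bp and 45.4% above the median score. The share at a start was 25.9% at 100 bp and 32.3% within 5000 bp of a start. The E-box share was 23.3% above the median score, and windows around the midpoints were not run. The cause was not tested.

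No member gene was called over the control times or at 6 h under any alternative. At 24 h limma called 1 with only the compared groups (Tmem176a; 0.187% of all genes), 0 to 3 when 1 library was left out (the lone library is then assumed to vary like the other groups), 8 of 128 against ZT9 and 6 of 128 against the mean of the control times, where 5.11% and 5.55% of all genes were called. The 8 included Fkbp5, Esyt2 and Tmem176a. Uncalled genes changed sign at 6 h as follows: Ciart 2.33 against ZT3 and 1.07 against the mean, Dbp 3.75 and 1.66, Fkbp5 -1.39 and -0.44. Tef became -0.03 with median-of-ratios scaling and ran from -0.16 to 0.38 when 1 library was left out (lowest without ZT9 replicate 1). At 24 h against ZT9, Ciart was -1.17 and Dbp -2.10.

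With the replicate number as a block, 0 member genes were called in the 3 comparisons. The correlations of replicate differences between groups ran from -0.141 (ZT9 and 6 h) to 0.473 (ZT3 and ZT15), with 0.43 for ZT15 and 6 h. Such correlations cannot settle whether the numbers pair the libraries. With 2 libraries per group and FPKM without counts, a difference that misses the threshold is not shown to be absent.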
